A study of Mus musculus with 24 samples.

Results

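The microbiota was compared with its absence in epididymal white fat, a visceral depot along the epididymis, averaged over 2 diets. All 24 arrays of the series entered the comparison, 12 from conventional mice and 12 from germ-free mice. The mice were wild-type C57Bl/6 males that went on the diets at 11 weeks of age and stayed on them for 11 weeks, with a fast of 4 h before sampling. Both diets gave 45% of energy as fat. The 4 groups of 6 mice were conventional mice fed lard, germ-free mice fed lard, conventional mice fed menhaden fish oil and germ-free mice fed menhaden fish oil. Conventional mice carry an ordinary gut flora, and germ-free mice are raised in isolators without microbes. The labels name no colony, cage or isolator, so bacterial status and colony cannot be told apart.

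White fat stores triglyceride in adipocytes and holds resident immune cells, and overloaded depots gather macrophages that take up lipid from dying adipocytes and digest it in lysosomes. The gut flora reaches the depot through absorbed microbial products, through fermentation products such as short-chain fatty acids and through its effects on energy harvest and on daily rhythms of metabolism. Adipocytes burn or convert fuel in mitochondria, whose respiratory chain is built from nuclear and mitochondrial genes.

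Each mouse gave 1 array, and values below are log2 signals after RMA, an array normalization. An effect is the mean of conventional mice minus the mean of germ-free mice on the log2 scale, taken within each diet and then averaged with equal weight per diet. A gene was called where its limma adjusted p was under 0.05 over the 19938 genes tested. Array medians lay between 7.09 and 7.20, and arrays of the same group correlated at 0.979 to 0.995. The fat markers Adipoq, Plin1, Lep, Fabp4 and Retn ranked above at least 99.1% of genes, and none of them lay below 12.04 log2 in any mouse.

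Some arrays stood apart. The mean of 21 liver transcripts was 8.42 to 9.78 in germ-free mice fed fish oil, against 7.01 to 8.45 in conventional mice fed fish oil, and the ranges with lard were 7.12 to 8.43 in conventional and 6.73 to 8.08 in germ-free mice. The mean of 20 intestinal epithelium transcripts was 8.98, 6.43 and 6.32 in lard-fed germ-free mice 4, 5 and 2, and at most 6.11 in every other mouse. Lard-fed conventional mice 5 and 6 had macrophage list means of 11.08 each, against 10.26 to 10.57 in the other 4 mice of their group. These are called the 3 intestinal-marker mice (germ-free mice 2, 4 and 5) and the 2 macrophage-rich mice (conventional mice 5 and 6) here, all fed lard. Their part in the results was not tested beyond the fits without these mice, or with the liver mean as a covariate, that are given beside the counts. The liver mean goes largely with 1 of the 4 groups, germ-free mice fed fish oil. As a covariate it therefore takes up part of the difference of that group, so a call lost in that fit does not test a part of liver RNA.

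Averaged over both diets, 3899 genes were called (19.6% of those tested), 2270 higher in conventional mice (11.4%) and 1629 lower (8.17%). The rises were small and many, and the larger changes were mostly falls: of the 178 called genes (0.893%) that differed by at least 1.5-fold, 50 were higher (0.251%) and 128 lower (0.642%). The effects had the same sign under both diets for 3611 called genes (18.1%), 2205 higher (11.1%) and 1406 lower (7.05%). The other 288 (1.44%) had opposite signs, and for 267 of these (1.34%) the effects under the diets differed by the interaction test. With every array centred on its median, which put the median effect of all genes at 0.019 instead of -0.002, the split was 2696 higher and 1240 lower. Leaving out conventional mice 5 and 6 of the lard diet gave 5210 calls, and leaving out germ-free mice 2, 4 and 5 of that diet gave 2365, of which 2297 were among the 3899. With the liver mean as a covariate it was 2627. Precision is limited by the 6 arrays in each group, and p-values measure the spread between mice.

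The effect with lard and the effect with fish oil rest on different mice. Across the 19938 genes they correlated weakly, with a Pearson r of 0.263 and a Spearman rho of 0.226, a description across genes that share array design and probes. All genes had the same sign under both diets in 54.5% of cases. With lard 3240 genes were called (16.3%), 8.77% higher and 7.48% lower, and with fish oil 2464 (12.4%), 7.15% higher and 5.21% lower. The lard count was 177 with the 3 intestinal-marker mice left out and 5079 with the 2 macrophage-rich mice left out. A set of 676 genes (3.39%) was called in the average and under each diet with the same sign, 542 higher (2.72%) and 134 lower (0.672%). A further 60 genes were called under each diet with opposite signs (0.301%). In the plot of the effect with fish oil against the effect with lard, the 676 genes lie at the upper right and lower left. Their selection by like sign fixed this place, so it is no sign of agreement between the diets.

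**Figure D1:**
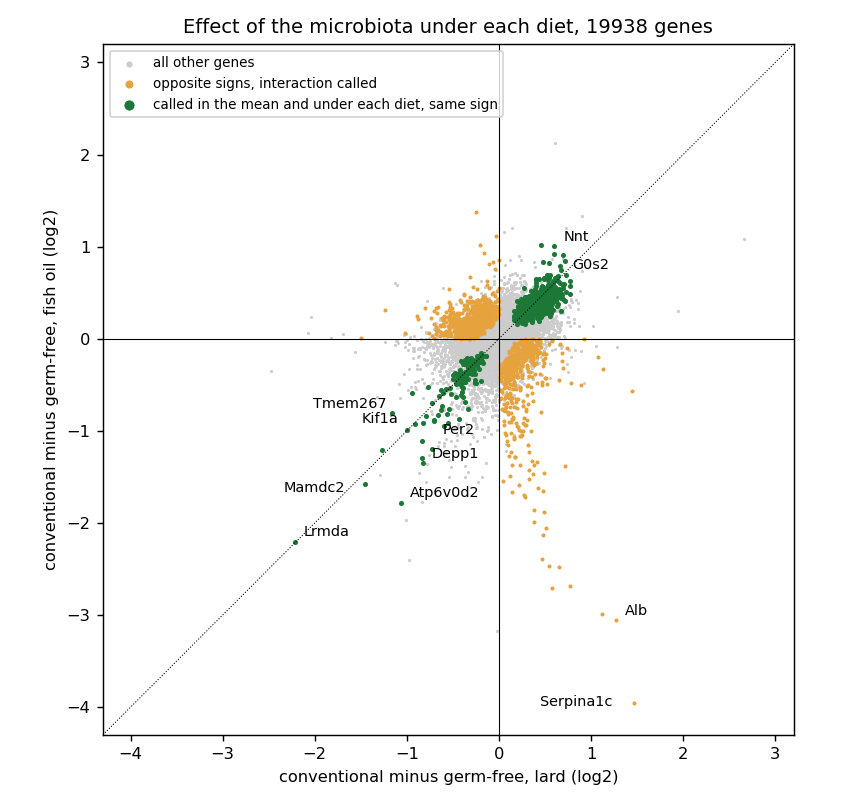
Effect of the microbiota with fish oil (y axis) against that with lard (x axis), both conventional minus germ-free in log2, 1 point for each of 19938 genes. The 676 genes called in the average and under each diet with the same sign (green) lie at the upper right and lower left by their selection. They reach down to Lrmda at -2.22 and -2.21, and the dotted line marks equal effects. Liver transcripts such as Serpina1c and Alb fall to the lower right among genes with opposite signs and a called interaction (orange).

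The mice of both states did not overlap within either diet, on the same side, for 93 genes (0.466%), 73 higher (0.366%) and 20 lower (0.100%) in conventional mice. For 16 genes (0.0802%) all 12 conventional mice lay apart from all 12 germ-free mice. The 6 lower ones among the 16 (0.0301%) were Lrmda, Entpd4, Slc10a6, Mapk12, Klf6 and Slc49a4, and the 10 higher ones (0.0502%) included Nnt, Rab4a and Wdfy1. The genes of both counts that are named here or in the next paragraphs and lie outside the 15 largest changes were chosen after their values were seen.

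Lrmda, which encodes a leucine-rich protein named for melanocyte differentiation, had the largest fall of the genes called under both diets, with clone and predicted names left out. Its signal was 7.32 to 7.98 (median 7.66) in conventional mice fed lard, against 9.53 to 10.11 (median 9.89) in germ-free mice fed lard. With fish oil it was 8.0 to 8.30 (median 8.04) in conventional mice, against 10.15 to 10.57 (median 10.29) in germ-free mice. The lowest germ-free mouse lay above the highest conventional mouse on both diets. The effect was -2.21 ± 0.07 (SE, adjusted p = 1.3e-16), a 4.63-fold lower signal in conventional mice, with -2.22 with lard, -2.21 with fish oil and an interaction of -0.01 (adjusted p = 0.98).

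Nnt encodes the proton-driven transhydrogenase of the inner mitochondrial membrane, which makes NADPH, and a deletion in it is known from some C57Bl/6 colonies. It had 9.09 to 9.50 (median 9.34) in conventional mice fed lard, against 8.50 to 8.90 (median 8.70) in germ-free mice fed lard. Under fish oil it had 9.26 to 9.63 (median 9.45) in conventional mice, against 8.26 to 8.57 (median 8.46) in germ-free mice. No conventional mouse overlapped with a germ-free mouse, and the effect was 0.80 ± 0.06 (adjusted p = 2.6e-09). It was larger with fish oil (1.01) than with lard (0.60), an interaction of -0.41 (adjusted p = 0.034).

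Among 8 measured genes known to vary between C57Bl/6 colonies, 3 were called, Nnt and Wdfy1 higher and Entpd4 lower, and 5 were not. Wdfy1, an endosomal adaptor, had an effect of 0.49 ± 0.05 (adjusted p = 3.2e-07). Entpd4, a Golgi and lysosomal nucleotidase, had an effect of -0.77 ± 0.04 (adjusted p = 4e-13), with 9.84 to 10.12 in conventional mice fed lard, against 10.86 to 10.99 in germ-free mice fed lard. With fish oil Entpd4 had a median of 9.93 in conventional mice, against 10.55 in germ-free mice, with no overlap, and the interaction was -0.35 (adjusted p = 0.0064). Tmem267, which encodes a membrane protein and fell by 0.99 ± 0.14 (adjusted p = 5.5e-05), lies close to Nnt on chromosome 13 of the mouse, with 2 protein-coding genes between them in the RefSeq gene order. These were Paip1, a regulator of translation, and 4833420G17Rik, with effects of -0.03 and -0.15 that were not called (adjusted p of 0.85 and 0.12). Outside the pair, Fgf10 and Mrps30 on the side of Nnt had 0.24 and 0.27, and Ccl28 next to Tmem267 had -0.26. All of these were called, with the same sign under both diets, whereas Hmgcs1, Nim1k, Zfp131, Parp8 and Isl1 farther out were not. The neighbours were named after their values were seen. The colonies of the mice are not given, and a part of colony in these values was not tested.

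**Figure D2:**
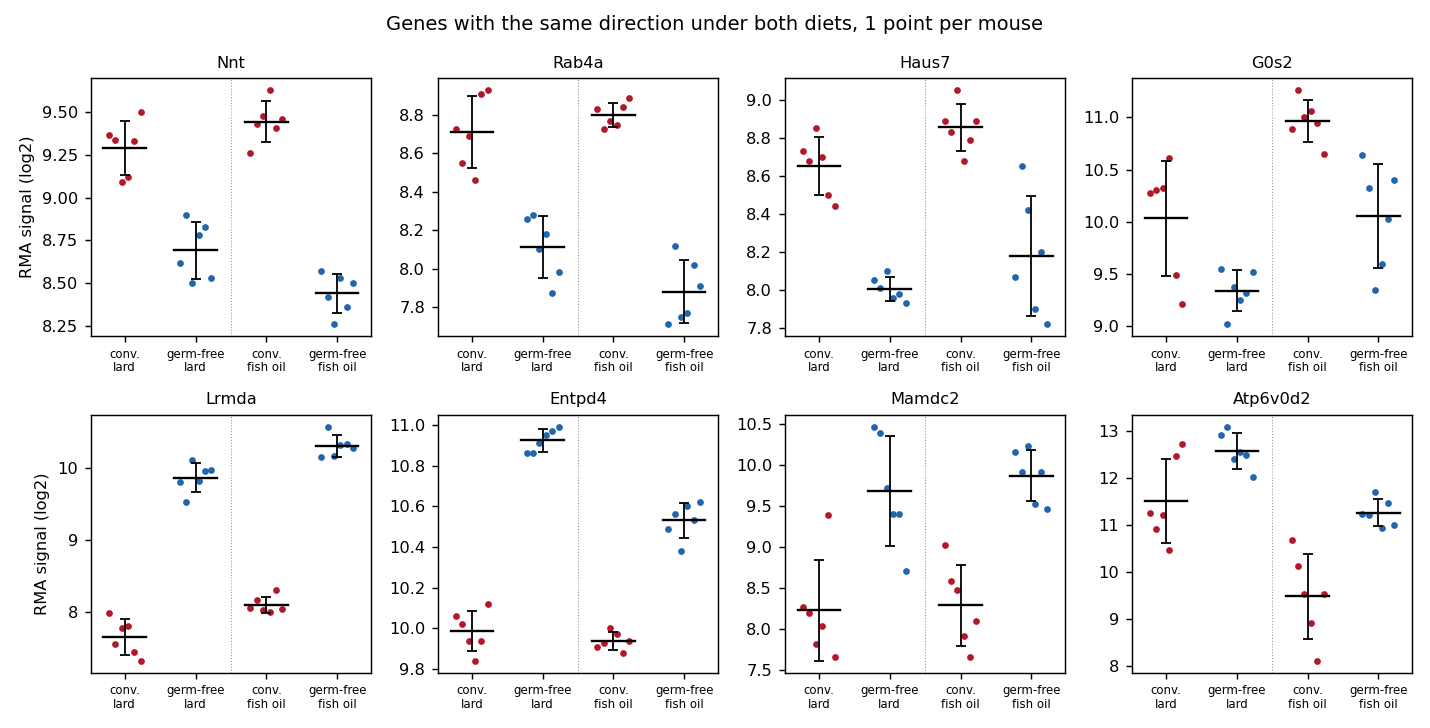
Log2 RMA signal of 8 genes called in the average and under each diet, 1 point per mouse (red conventional, blue germ-free; bars show the mean and SD of 6 mice). Nnt, Rab4a, Haus7, Lrmda and Entpd4 separate conventional from germ-free mice within both diets, and G0s2, Mamdc2 and Atp6v0d2 overlap within at least 1 diet.

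The 15 largest rises called under both diets were Nnt, G0s2, Mrpl42, Rab4a, Aspa, Cox7a1, Cd3g, Sdhaf4, Morn2, Fmc1, Rpa3, Haus7, Mrpl22, Chchd1 and Tipin, with effects of 0.64 to 0.80. Clone, predicted and similar names were left out of this ranking and of that of the falls. G0s2 inhibits adipose triglyceride lipase and so restrains lipolysis. Its signal was 9.21 to 10.61 (median 10.29) in conventional mice fed lard, against 9.02 to 9.55 (median 9.35) in germ-free mice fed lard, and 10.65 to 11.26 (median 10.97) in conventional mice fed fish oil, against 9.35 to 10.64 (median 10.18) in germ-free mice fed fish oil. The groups overlapped with lard and did not overlap with fish oil. The effect was 0.80 ± 0.15 (adjusted p = 0.0005). Rab4a, a small GTPase of endosome recycling that takes part in returning the glucose transporter to the cell surface, had 8.46 to 8.93 in conventional mice fed lard, against 7.87 to 8.28 in germ-free mice fed lard, and 8.73 to 8.89 in conventional mice fed fish oil, against 7.71 to 8.12 in germ-free mice fed fish oil. No mouse overlapped, and the effect was 0.76 ± 0.06 (adjusted p = 2e-08).

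Of the same 15 genes, 6 besides Nnt act in mitochondria. Mrpl42, Mrpl22 and Chchd1 belong to the mitochondrial ribosome, Cox7a1 is a complex IV subunit of oxidative muscle and brown fat, and Sdhaf4 and Fmc1 help to assemble complex II and the ATP synthase. Aspa, which splits N-acetylaspartate, acts outside them. Mrpl42 had an effect of 0.78 ± 0.10 (adjusted p = 4e-05) and did not overlap within either diet. Cox7a1 had 0.73 ± 0.15 (adjusted p = 0.00099). Haus7, a subunit of the augmin complex of the spindle, had 0.66 ± 0.07 (adjusted p = 1.1e-05). Rpa3 and Tipin, which work at replication forks, had effects of 0.67 and 0.64. Of 24 measured cell division genes, by contrast, limma called 0, with 3 at an unadjusted p under 0.05, a median effect of -0.008, and 1 called higher with centred arrays.

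The 15 largest falls called under both diets were Lrmda, Mamdc2, Atp6v0d2, Gpr50, Depp1, Nceh1, Kif1a, Tmem267, Fggy, Anpep, Myo1e, Gas2l3, Gpr137b-ps, Dusp1 and Per2, with effects from -2.21 to -0.80. Mamdc2, a secreted matrix proteoglycan, had 7.65 to 9.39 (median 8.11) in conventional mice fed lard, against 8.71 to 10.47 (median 9.56) in germ-free mice fed lard. With fish oil it had 7.66 to 9.02 (median 8.29) in conventional mice, against 9.47 to 10.23 (median 9.92) in germ-free mice. The groups overlapped with lard through conventional mouse 5, and did not overlap with fish oil. The effect was -1.52 ± 0.20 (adjusted p = 4.4e-05), a 2.87-fold lower signal.

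Gpr50, a melatonin receptor relative with no known ligand, fell by 1.24 ± 0.27 (adjusted p = 0.0021). Its level depended far more on diet, with 9.46 to 11.64 in conventional mice fed lard, against 11.77 to 12.30 in germ-free mice fed lard, and 5.21 to 7.34 in conventional mice fed fish oil, against 6.05 to 8.29 in germ-free mice fed fish oil. The effect was nearly the same under both diets, -1.27 with lard and -1.21 with fish oil. Depp1, a target of FOXO factors, had an effect of -1.09 ± 0.17 and Nceh1, a hydrolase of cholesterol esters in macrophages, of -1.06 ± 0.19. Kif1a, a kinesin that moves vesicle precursors, had -1.0 and Fggy, a sugar kinase, had -0.97 ± 0.12, with 4 other probe sets of Fggy at -1.03 to -0.43. Anpep, the surface peptidase CD13, had -0.96. Myo1e, a class I myosin, and Gas2l3, a linker of actin and microtubules, had -0.92 and -0.87. Gpr137b-ps is annotated as a pseudogene of Gpr137b, and signal of its probes may come from either gene, so its effect of -0.82 is uncertain in origin.

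Most respiratory chain genes rose. Of 34 measured oxidative phosphorylation genes, 29 were higher and 0 lower in conventional mice, with a median effect of 0.32 against -0.002 for all genes. Of them 21 were also called under each diet. The list mean was 10.89 to 11.35 in conventional mice fed lard, against 10.76 to 10.93 in germ-free mice fed lard, and 11.66 to 11.90 in conventional mice fed fish oil, against 11.35 to 11.57 in germ-free mice fed fish oil. Only the lard-fed mice overlapped. The count was 25 with the 3 intestinal-marker mice left out, and 30 with the liver mean as a covariate.

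Within this list the rises ran through complex I, where Ndufa1 had 0.63 ± 0.09 (adjusted p = 5.3e-05), Ndufa2 0.60 and Ndufb8 0.60. Ndufb3 had 0.57, with 9.67 to 10.46 in conventional mice fed lard, against 9.26 to 9.62 in germ-free mice fed lard, and 10.65 to 10.97 in conventional mice fed fish oil, against 9.88 to 10.63 in germ-free mice fed fish oil. No mouse overlapped within a diet. The 5 members not called were Ndufs1, Sdha, Uqcrc2, Atp5a1 and Atp5b, which encode large or catalytic subunits of complexes I, II, III and V, and they were named after their values were seen. Their effects were 0.15, 0.01, 0.12, -0.06 and -0.07. Atp5b, the catalytic beta subunit of the ATP synthase, fell with lard, at 12.86 to 12.94 in conventional mice against 13.04 to 13.23 in germ-free mice, an effect of -0.27 (adjusted p = 0.00076). With fish oil Atp5b had 13.05 to 13.24 in conventional mice against 12.91 to 13.11 in germ-free mice, and the interaction was -0.40 (adjusted p = 0.0016). Interactions were also called for Ndufs1 (-0.56), Uqcrc2 (-0.37) and Atp5a1 (-0.32), so 4 of the 34 members had one, against 7.20% of all genes.

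Most genes of the mitochondrial and cytosolic ribosomes rose too. Of 28 mitochondrial ribosomal proteins, which translate the mitochondrial genes of the respiratory chain, 23 were higher and 0 lower, with a median effect of 0.28. Mrpl13 had 0.55 ± 0.09 (adjusted p = 0.00017), at 8.90 to 9.74 in conventional mice fed lard, against 8.69 to 9.09 in germ-free mice fed lard, and 9.83 to 10.08 in conventional mice fed fish oil, against 9.06 to 9.74 in germ-free mice fed fish oil. Mrpl20 had 0.47. Of 22 measured cytosolic ribosomal proteins, 19 were higher and 0 lower, with a median of 0.20. Rps19 had 0.40 ± 0.06 (adjusted p = 6.8e-05), and Rpl13 and Rps18 had 0.32 and 0.29, with 8 other probe sets of Rpl13 at 0.24 to 0.35. Ribosomal proteins have near-identical pseudogene copies whose transcripts the probes may share. With lard 17 of the 22 were called higher, and with fish oil 2, while 0 interactions in the list were called. With the liver mean as a covariate the count was 12.

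The proteasome degrades ubiquitin-tagged proteins. Of its 26 subunits 20 were higher and 1 was lower, with a median of 0.24. Psmc5, an ATPase of the regulatory cap, had 0.40 ± 0.06 (adjusted p = 0.00018), and Psmb1 and Psmb7, of the catalytic core, had 0.37 each. Psmb1 had 9.96 to 10.58 in conventional mice fed lard, against 9.77 to 9.98 in germ-free mice fed lard, and 10.59 to 10.77 in conventional mice fed fish oil, against 10.21 to 10.57 in germ-free mice fed fish oil. The groups overlapped narrowly with lard and were apart with fish oil. The member that fell was Psmd2, a large scaffold subunit, at -0.22.

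**Figure D3:**
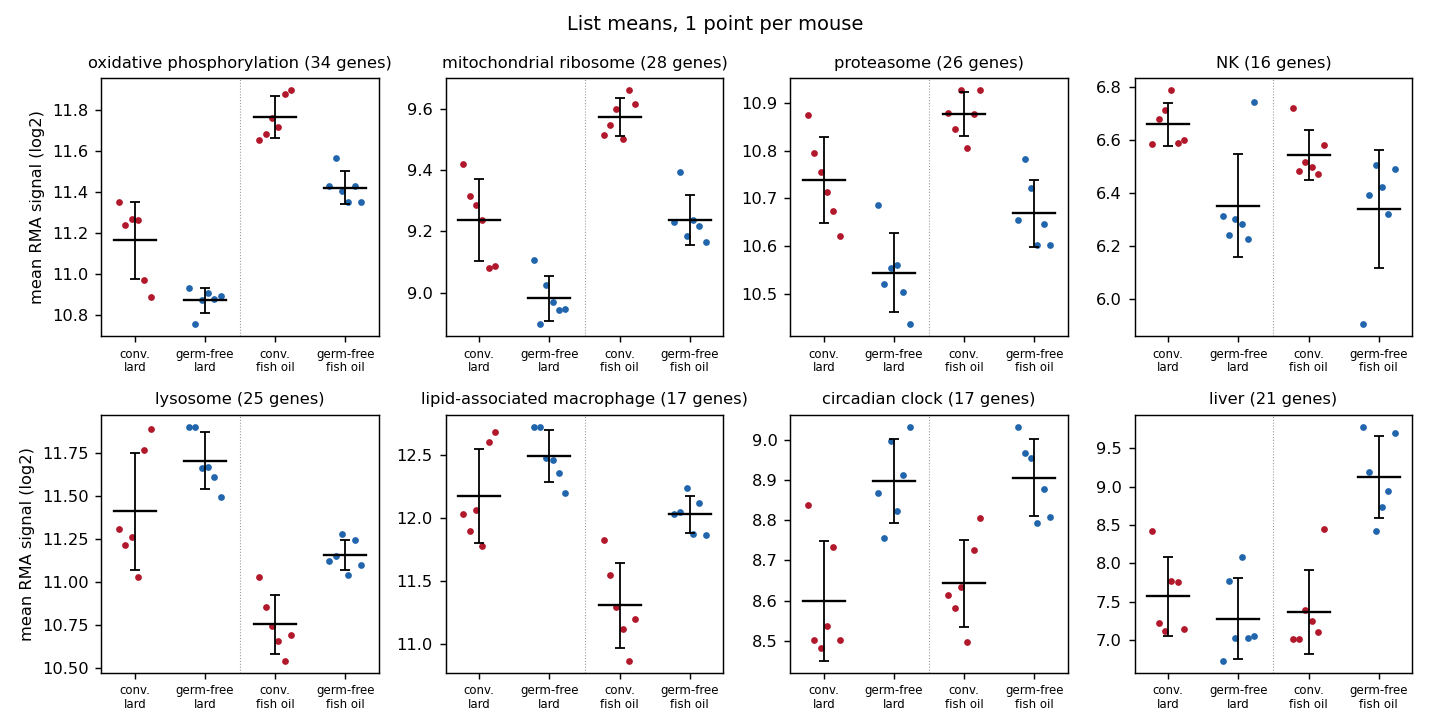
Mean log2 RMA signal over the measured genes of 8 lists, 1 point per mouse (red conventional, blue germ-free; bars show the mean and SD of 6 mice). The oxidative phosphorylation, mitochondrial ribosome and proteasome means are higher in conventional mice under both diets, the lysosome, lipid-associated macrophage and clock means are lower on average, with overlap under lard and, for the clock, under fish oil too, and the liver mean stands out at 8.42 to 9.78 in germ-free mice fed fish oil.

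Most lysosome genes fell. Of 25 measured genes of lysosomal enzymes, membrane proteins and the proton pump, 18 were lower and 1 was higher, with a median effect of -0.28. The fall was of like size with lard (median -0.28) and with fish oil (median -0.29). The list mean was 11.03 to 11.89 in conventional mice fed lard, against 11.49 to 11.90 in germ-free mice fed lard. Under fish oil it was 10.54 to 11.03 in conventional mice, against 11.05 to 11.28 in germ-free mice, and only the lard-fed mice overlapped. The count lower was 14 with the 3 intestinal-marker mice left out, and 20 with the 2 macrophage-rich mice left out. These 2 conventional mice were named for high macrophage markers, and the lysosome list shares members with the lipid-associated macrophage list. The larger count may therefore be built in and tests nothing.

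Atp6v0d2 is a subunit of the vacuolar proton pump that is abundant in osteoclasts and lipid-laden macrophages. It had 10.46 to 12.73 (median 11.23) in conventional mice fed lard, against 12.02 to 13.09 (median 12.52) in germ-free mice fed lard. With fish oil it had 8.11 to 10.69 (median 9.53) in conventional mice, against 10.94 to 11.71 (median 11.22) in germ-free mice. The groups overlapped with lard, and the effect was -1.43 ± 0.25 (adjusted p = 0.00033). Of the proteases, Ctsk had -0.93 ± 0.23, Ctss -0.67 ± 0.14 and Ctsl -0.47 ± 0.09 (adjusted p of 0.0057, 0.0017 and 0.00086). Lipa, the acid lipase that frees cholesterol and fatty acids inside the lysosome, had -0.65 ± 0.13 (adjusted p = 0.00075), and Gla, an alpha-galactosidase, -0.63. Npc2, which carries cholesterol out of the lysosome, was the 1 member that rose, by 0.13 (adjusted p = 0.047). Its call was kept in only 6 of 24 fits that each left out 1 mouse, and was lost under several other settings.

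The letters CACGTG, the E-box at the core of the sites bound by TFEB on lysosomal genes and by CLOCK and BMAL1 on clock genes, were looked for in RefSeq promoter windows (build GRCm38.p6, 250 bases before to 50 after a gene's start, on both strands, which read alike for this motif). They stood in 7.15% of 32851 windows, and in those of 9.5% of the 15614 tested genes with a window. Of 21 measured lysosome genes with a window, 10 held them, and of 15 clock genes 5 did. A match describes the letters alone. The stretches below belong to 4 genes of the lysosome list that fell, with the E-box in capitals, each read 5′ to 3′ on the strand of the gene.
Ctsl (chr13:64370724-64370770, minus strand): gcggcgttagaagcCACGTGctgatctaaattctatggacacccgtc
Gla (chrX:134601200-134601255, minus strand): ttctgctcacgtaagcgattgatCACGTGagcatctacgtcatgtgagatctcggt
Atp6v1a (chr16:44139358-44139417, minus strand): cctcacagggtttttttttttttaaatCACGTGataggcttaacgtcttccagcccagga
Ctsd (chr7:142388040-142388077, minus strand): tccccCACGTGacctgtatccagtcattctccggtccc
Of the genes shown, Atp6v1a, a catalytic subunit of the same proton pump, had an effect of -0.46 ± 0.12 (adjusted p = 0.0072), and Ctsd, the main aspartic protease of the lysosome, of -0.18 (adjusted p = 0.015). Of the 10 lysosome genes with the letters, 6 were called lower, and Lamp1, Gaa, Atp6v0d1 and Mcoln1 were not called, with effects of -0.05, -0.06, -0.12 and -0.10.

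Macrophage markers fell in part. Of 20 general macrophage markers 9 were lower and 1 was higher, with a median effect of -0.37, and of 17 markers of lipid-associated macrophages, which gather around dying adipocytes, 10 were lower and 0 higher, with a median of -0.475. Of those 10, 4 are also in the lysosome list. The whole depot was measured, so fewer cells of a type and less RNA per cell cannot be told apart. With the 2 macrophage-rich mice left out, 14 general markers were lower. These conventional mice were named for their high mean of this same list, so a larger count was built in and tests nothing.

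Itgax, which encodes CD11c, had 9.77 to 11.70 (median 10.05) in conventional mice fed lard, against 10.64 to 11.96 (median 11.32) in germ-free mice fed lard. Under fish oil it had 7.75 to 9.50 (median 8.47) in conventional mice, against 9.51 to 10.47 (median 10.07) in germ-free mice. The effect was -1.16 ± 0.22 (adjusted p = 0.0006). Gpnmb, a glycoprotein of phagocytes with a lysosomal load, had -1.02 ± 0.19, Trem2, a lipid-sensing receptor, -0.95 ± 0.20, and Mmp12, the macrophage elastase, -0.86 ± 0.17 (adjusted p of 0.00058, 0.0016 and 0.00073). Under fish oil alone each of these 4 was called, with effects of -1.5 to -1.13, and under lard none was, with effects of -0.87 to -0.52, while the interaction was called for none of them. Of the general markers, Clec7a had -0.78, Mpeg1 -0.66, Cd68 -0.60 and Cybb, the oxidase subunit, -0.55, and Adgre1, which encodes F4/80, had -0.37 (adjusted p = 0.09).

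Few markers of tissue-resident macrophages were called. Of 16 measured, 3 were higher and 0 lower, 13 were not called, and 11.4% of all genes were called higher. The median was 0.22, and 9 were higher with the 2 macrophage-rich mice left out. Pf4, a chemokine of these cells and of platelets, had 0.47 ± 0.12 (adjusted p = 0.0084), Timd4, a receptor for dying cells, 0.33, and Igf1 0.22 ± 0.04 (adjusted p = 0.00027). Igf1 had 12.21 to 12.40 in conventional mice fed lard, against 11.91 to 12.15 in germ-free mice fed lard, and was 12.18 to 12.40 in conventional mice fed fish oil, against 11.99 to 12.20 in germ-free mice fed fish oil. Vsig4, a complement receptor of resident macrophages that is in none of the lists, had 0.78 ± 0.21 (adjusted p = 0.01) and was named after its value was seen. With the liver mean as a covariate only 1 of the 16 was called, and Pf4, Timd4 and Vsig4 were not.

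Of 16 NK markers 8 were higher, 0 lower and 8 not called, with a median of 0.24 and 16 of 16 effects above 0. Under lard 6 of them were called higher and under fish oil 0. Ccl5, a chemokine of effector lymphocytes, had 9.82 to 10.66 (median 10.13) in conventional mice fed lard, against 8.85 to 10.34 (median 9.11) in germ-free mice fed lard, and 9.72 to 10.56 (median 9.75) in conventional mice fed fish oil, against 8.33 to 9.82 (median 9.52) in germ-free mice fed fish oil. Its effect was 0.70 ± 0.17 (adjusted p = 0.0041). Nkg7, of cytotoxic granules, had 0.56, the inhibitory receptor Klrg1 0.51 and the protease Gzma 0.37. The count of 8 was 2 both with the 3 intestinal-marker mice left out and with the liver mean as a covariate. Of 18 T cell genes 3 were higher, Cd3g by 0.71 ± 0.16 (adjusted p = 0.002), Thy1 by 0.31 and Cd247 by 0.24, against 11.4% of all genes. With the 3 intestinal-marker mice left out 1 of the 18 was higher, and Thy1 kept its call in 18 of 24 fits that each left out 1 mouse. Of 15 dendritic cell genes 5 were higher, with 8 higher under lard and 0 under fish oil, where the median was -0.083. With the 3 intestinal-marker mice left out 3 were higher and 1 lower. The 5 included Xcr1 (0.29) and Clec9a (0.36) of cross-presenting cells, and the effect on Clec9a differed between the diets (interaction 0.71, adjusted p = 0.037). With the liver mean as a covariate 0 T cell genes and 2 dendritic cell genes were higher.

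Toll-like receptors sense microbial products. Of 23 genes of their pathway 7 were lower and 0 higher in conventional mice, with a median of -0.12. Over all genes 8.17% were lower and 11.4% higher. Tlr13, a sensor of bacterial ribosomal RNA, had 9.39 to 11.20 (median 10.07) in conventional mice fed lard, against 10.13 to 11.33 (median 10.77) in germ-free mice fed lard. With fish oil it had 8.03 to 9.15 (median 8.36) in conventional mice, against 9.24 to 10.43 (median 9.50) in germ-free mice. The effect was -0.88 ± 0.19 (adjusted p = 0.0021), and the groups overlapped with lard only. Tlr8, a sensor of single-stranded RNA, had -0.53 and the signalling ligase Traf6 -0.21. Tlr4, the receptor for lipopolysaccharide, was not called at -0.08 ± 0.07 (adjusted p = 0.49), nor were the adaptors Myd88 (-0.13, adjusted p = 0.12) and Ticam1, which encodes TRIF (-0.04, adjusted p = 0.72). With the 3 intestinal-marker mice left out the count of 7 was 1. The effects on Ticam1 differed between the diets, 0.20 with lard and -0.28 with fish oil (interaction 0.47, adjusted p = 0.016).

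Inflammatory signals did not share 1 direction. Tnf, Il6, Il1b and Ccl2, the main monocyte attractant, had effects of 0.01, -0.06, 0.01 and 0.19, none called, and Il6 lay near the lowest signals at 3.74 to 4.88. Of 15 NF-kappaB feedback genes 4 were lower, against 8.17% of all genes. Among them was Tnfaip3, which encodes the inhibitor A20, at -0.38 ± 0.05 (adjusted p = 5.5e-05). Nfkbia, the inhibitor IkappaB-alpha, had -0.27, with 0.03 under lard and -0.56 under fish oil (interaction 0.58, adjusted p = 0.0049). Saa3, an acute-phase protein of fat and macrophages, rose by 1.12 ± 0.20 (adjusted p = 0.00039), and nearly all of it came with lard. Saa3 had 10.44 to 11.97 in conventional mice fed lard, against 8.56 to 9.70 in germ-free mice fed lard, and 8.19 to 9.64 in conventional mice fed fish oil, against 7.99 to 9.64 in germ-free mice fed fish oil (interaction 1.64, adjusted p = 0.015). Lcn2, an iron-scavenging protein, had 1.13 with lard and -0.33 with fish oil (interaction 1.46, adjusted p = 0.034) and was not called in the average.

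**Figure D4:**
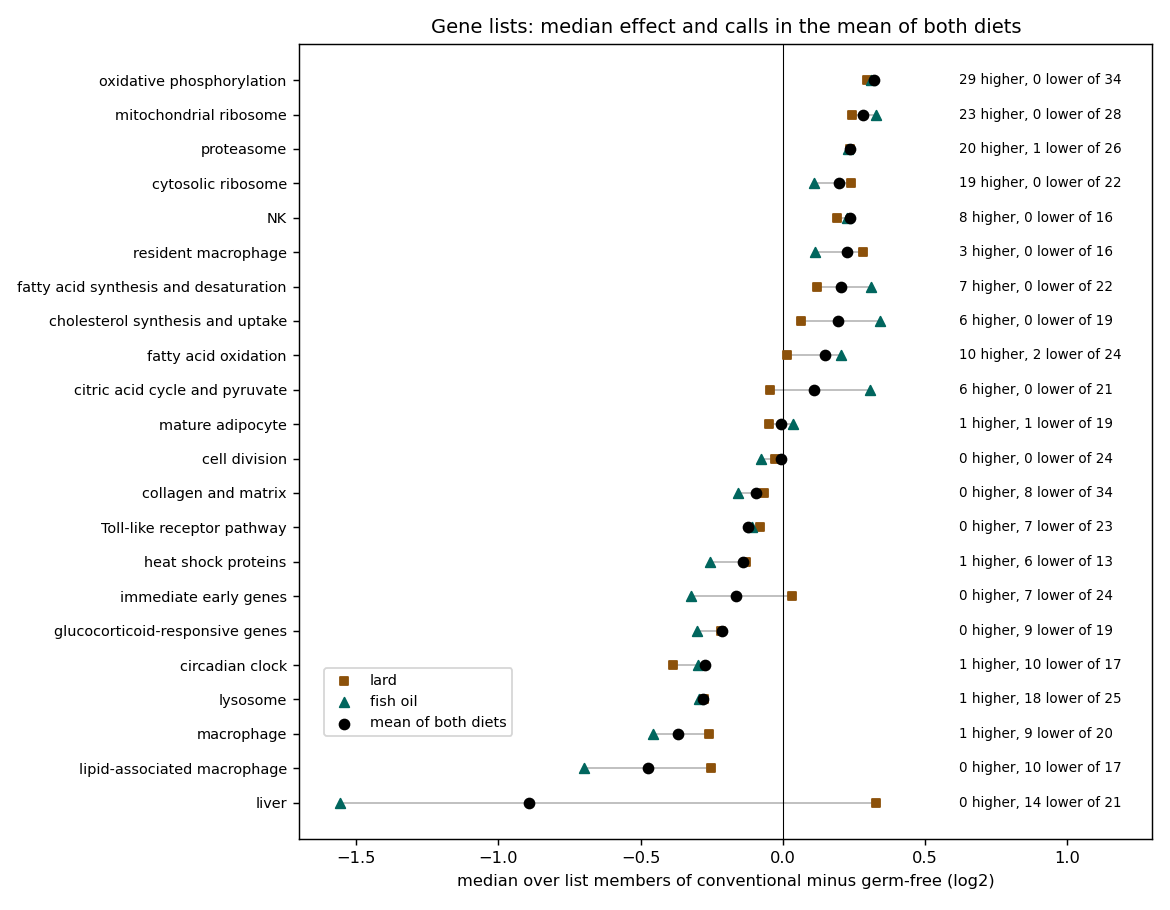
Median over the members of 22 gene lists of conventional minus germ-free in log2 (x axis), for the average (circle), lard (square) and fish oil (triangle), with the number of members called in the average at the right. The oxidative phosphorylation, mitochondrial ribosome, proteasome and cytosolic ribosome lists sit at 0.20 to 0.32. The lysosome, clock, general macrophage and lipid-associated macrophage lists sit at -0.475 to -0.275, and the resident macrophage list at 0.224. The liver list lies at 0.33 with lard and -1.56 with fish oil.

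Many clock genes fell, and Arntl rose. The daily clock of each cell runs on a loop in which CLOCK and BMAL1 switch on the Per and Cry genes, whose proteins then block them. Of 17 measured clock genes 10 were lower, 1 was higher and 6 were not called, with a median of -0.275 and 5 effects above 0. All 11 called had the same sign under both diets. The list mean was 8.48 to 8.84 in conventional mice fed lard, against 8.76 to 9.03 in germ-free mice fed lard, and 8.50 to 8.81 in conventional mice fed fish oil, against 8.79 to 9.03 in germ-free mice fed fish oil. The count lower was 4 with the liver mean as a covariate, and Dbp, Per3, Tef, Nr1d2 and Arntl were then not called. That covariate goes largely with germ-free mice fed fish oil, so these lost calls do not test a part of liver RNA. The sources used here give no hour of sampling, and a part of it in these values was not tested.

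Per2 had 7.29 to 7.99 (median 7.52) in conventional mice fed lard, against 7.94 to 8.66 (median 8.38) in germ-free mice fed lard. Under fish oil it had 7.35 to 8.19 (median 7.52) in conventional mice, against 8.38 to 8.75 (median 8.63) in germ-free mice. The groups overlapped with lard by a narrow margin, and the effect was -0.80 ± 0.11 (adjusted p = 5.4e-05). Per1 had -0.70 ± 0.12, Per3 -0.59 ± 0.12 and Ciart, a repressor of the loop, -0.73 ± 0.15 (adjusted p of 0.00025, 0.0011 and 0.0013). The output factors Dbp and Tef had -0.61 and -0.40, and the repressor Nr1d2 had -0.48. Arntl, which encodes BMAL1 and peaks opposite to the Per genes, rose by 0.51 ± 0.12 (adjusted p = 0.0038), at 8.0 to 8.79 in conventional mice fed lard, against 7.58 to 8.18 in germ-free mice fed lard.

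The E-box of 3 of the clock genes that fell is shown in capitals, and for Per3 the D-box TTATGTAA, a site of the DBP and TEF family. Cry1 and Bhlhe41 also held the E-box and were not called, with effects of 0.02 and -0.28 (limma adjusted p of 0.86 and 0.17). The D-box letters TTATGTAA or TTACGTAA stood on either strand in 1.06% of windows and in 1 of the 15 clock genes.
Per1 (chr11:69098756-69098815, plus strand): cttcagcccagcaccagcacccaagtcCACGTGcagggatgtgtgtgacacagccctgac
Ciart (chr3:95882312-95882371, minus strand): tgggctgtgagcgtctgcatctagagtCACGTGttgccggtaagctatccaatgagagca
Tef (chr15:81802519-81802578, plus strand): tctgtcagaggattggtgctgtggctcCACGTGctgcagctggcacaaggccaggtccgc
Per3 (chr4:151044836-151044897, minus strand): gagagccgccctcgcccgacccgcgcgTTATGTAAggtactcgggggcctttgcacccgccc
Relative to the RefSeq start the E-box shown for Per1 began at position -166 and that for Ciart at position -116, in a window that held 3 copies.

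**Figure D5:**
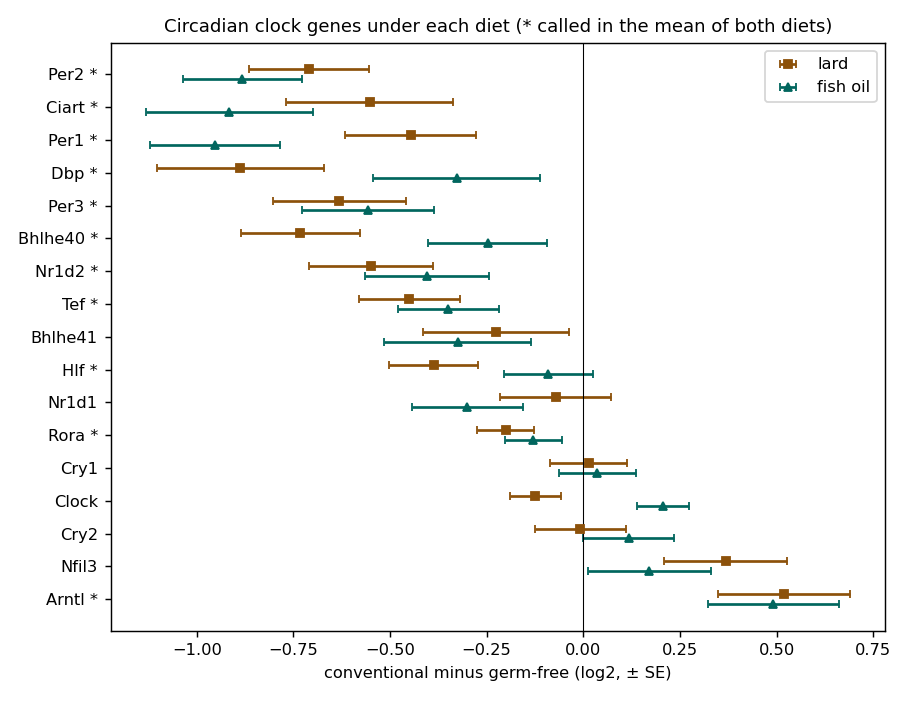
Effect of the microbiota on 17 clock genes in log2 with its SE (x axis), with lard (square) and with fish oil (triangle); stars mark genes called in the average. Per2, Ciart and Per1 lie lowest and Arntl highest at 0.51, and both symbols lie on the same side of 0 for every starred gene.

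Genes of the glucocorticoid, early response and stress lists fell in part. Of 19 glucocorticoid-responsive genes 9 were lower and 0 higher, with a median of -0.21. Dusp1, a phosphatase that switches off MAP kinases, had 9.91 to 11.55 in conventional mice fed lard, against 10.78 to 11.73 in germ-free mice fed lard, and 9.31 to 10.07 in conventional mice fed fish oil, against 10.29 to 10.77 in germ-free mice fed fish oil. The fish oil groups were apart, and the effect was -0.80 ± 0.15 (adjusted p = 0.00048). Errfi1, an inhibitor of the EGF receptor, had -0.76, and Klf9, a transcription factor, had -0.71, with -1.03 under lard and -0.38 under fish oil (interaction -0.65, adjusted p = 0.041). Of 24 immediate early genes 7 were lower and 0 higher, among them Atf3 at -0.91 ± 0.17 (adjusted p = 0.00046) and Klf6 at -0.43 ± 0.05 (adjusted p = 3e-05), both stress-induced factors. All 12 conventional mice had less Klf6 than every germ-free mouse.

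Of 13 heat shock genes 6 were lower and 1 was higher, against 8.17% and 11.4% of all genes. Hspa1a, the inducible HSP70, fell by 0.93 ± 0.11 (adjusted p = 1.2e-05), mostly with fish oil, where it had 8.21 to 8.52 in conventional mice against 9.15 to 10.50 in germ-free mice. With lard it had 8.03 to 8.39 in conventional mice against 8.34 to 8.77 in germ-free mice, and the interaction was 1.13 (adjusted p = 0.0027). Its near-identical neighbour Hspa1b may share the probes. Hsph1 and Chordc1, both co-chaperones, had -0.58 and -0.47. The member that rose was Hspe1, the mitochondrial chaperonin HSP10, at 0.44 ± 0.08 (adjusted p = 0.00049). Of 27 unfolded protein and amino acid stress genes 8 were lower and 1 was higher, against 8.17% and 11.4% of all genes. Among the lower was Herpud1, of protein disposal at the endoplasmic reticulum, at -0.37 ± 0.06 (adjusted p = 0.00014). With the 3 intestinal-marker mice left out the count of 8 was 3, and with the 2 macrophage-rich mice left out it was 13.

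Lipid and fuel genes rose in part. Of 22 genes of fatty acid synthesis 7 were higher and 0 lower, with a median of 0.20, and 0 were called with lard and 9 with fish oil. The count of 7 was 3 with the 3 intestinal-marker mice left out. Scd2, a desaturase, had 0.56 ± 0.14 and Acly, which makes cytosolic acetyl-CoA, 0.48 ± 0.12 (adjusted p of 0.0059 and 0.0065). The effects differed between the diets for 5 of the list, among them Elovl6, an elongase, with -0.21 under lard and 1.02 under fish oil (interaction -1.22, adjusted p = 0.0044), and Acss2, which activates acetate, with -0.00 under lard and 0.86 under fish oil (interaction -0.86, adjusted p = 0.031). Fasn, the fatty acid synthase, had 0.26 (adjusted p = 0.039), a call kept in 12 of 24 fits that each left out 1 mouse. Of 19 cholesterol synthesis genes 6 were higher and 0 lower, with Pmvk at 0.58 ± 0.09 (adjusted p = 8.6e-05), Idi1 at 0.43, Dhcr7 at 0.40 and Fdps at 0.39 ± 0.07 (adjusted p = 0.00026). Fdps had 9.93 to 10.30 in conventional mice fed lard, against 9.53 to 9.95 in germ-free mice fed lard, and 9.50 to 9.98 in conventional mice fed fish oil, against 9.15 to 9.57 in germ-free mice fed fish oil.

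Of 24 fatty acid oxidation genes 10 were higher and 2 lower, against 11.4% and 8.17% of all genes. With lard 2 were higher and 2 lower (median 0.015), against 8.77% and 7.48% of all genes. With fish oil 7 were higher and 0 lower (median 0.205), against 7.15% and 5.21%. The lard counts and the 2 lower in the average thus lie near the shares over all genes and do not set the list apart. Eci1, an isomerase, and Cpt2, the inner carnitine transferase, had 0.39 and 0.29, and Cpt1a, the outer and rate-limiting one in liver, had -0.23 ± 0.06 (adjusted p = 0.0085). The counts in the average were 4 higher and 0 lower with the 3 intestinal-marker mice left out, and 6 and 2 with repeated quantile normalization. Of 21 citric acid cycle and pyruvate genes 6 were higher, with Suclg1, of succinyl-CoA synthetase, at 0.43 ± 0.08 (adjusted p = 0.00073) and Pdhb, of pyruvate dehydrogenase, at 0.38, and with the liver mean as a covariate 11 were. The diets differed here. With lard 4 were higher and 3 lower (median -0.046), and with fish oil 14 were higher and 0 lower (median 0.308). The interaction was called for 7 of the 21. Of 16 genes of thermogenic adipocytes 4 were higher and 1 lower, against 11.4% and 8.17% of all genes. With lard 1 was higher and 2 lower, with fish oil 6 were higher and 0 lower, and 4 had a called interaction. Cox8b, a complex IV subunit of brown fat and muscle, had 0.96 ± 0.20 (adjusted p = 0.0014), Cidea, a lipid droplet protein, 0.67 with an interaction of -1.06 (adjusted p = 0.047), and Ucp1, the uncoupling protein of brown fat, -0.00 (adjusted p = 0.99) at 5.73 to 6.45.

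Of 19 mature adipocyte genes 1 was higher and 1 lower. Over all genes 11.4% were called higher and 8.17% lower, so these counts do not set the small list apart. Adipoq, Lep and Pparg, the master regulator of fat cells, had effects of 0.05 ± 0.09, -0.05 ± 0.09 and -0.11 ± 0.05 (adjusted p of 0.74, 0.78 and 0.12). Of 34 collagen and matrix genes 8 were lower and 0 higher, with a median of -0.09. Over all genes 8.17% were lower and 11.4% higher. Ccn2, a matricellular growth factor, had -0.77 ± 0.13 (adjusted p = 0.00026), at 9.20 to 10.52 in conventional mice fed lard, against 9.86 to 10.59 in germ-free mice fed lard, and 8.56 to 9.41 in conventional mice fed fish oil, against 9.52 to 10.47 in germ-free mice fed fish oil. With the 3 intestinal-marker mice left out the count of 8 was 4, and with the 2 macrophage-rich mice left out it was 13. Pla2g7, a phospholipase that breaks down platelet-activating factor, had -0.69 ± 0.13 (adjusted p = 0.00057).

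Sensors of microbial metabolites gave 1 rise and 4 falls among 23 genes, and 1 rise and 2 falls with the 3 intestinal-marker mice left out. Over all genes 11.4% were called higher and 8.17% lower, so these counts do not set the list apart. Ffar2, a receptor for short-chain fatty acids, rose by 0.47 ± 0.08 (adjusted p = 0.0003). It had 9.17 to 9.85 (median 9.76) in conventional mice fed lard, against 8.76 to 9.25 (median 9.14) in germ-free mice fed lard, and 9.59 to 10.15 (median 10.02) in conventional mice fed fish oil, against 9.35 to 9.68 (median 9.58) in germ-free mice fed fish oil. The groups overlapped narrowly under both diets. The related receptor Ffar3 was at 5.65 to 6.36 in all mice, with an effect of -0.10 (adjusted p = 0.28). Ahr, the aryl hydrocarbon receptor, fell by 0.28 ± 0.05 (adjusted p = 0.00014), at 8.40 to 8.63 in conventional mice fed lard, against 8.72 to 9.00 in germ-free mice fed lard, and 8.26 to 8.51 in conventional mice fed fish oil, against 8.44 to 8.70 in germ-free mice fed fish oil.

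The average over the diets described some genes poorly. In all, 1435 genes (7.20%) had effects that differed between the diets, 2.81% with a positive difference (lard minus fish oil) and 4.38% with a negative one, and 420 of them (2.11%) were called in the average. The 5 largest interactions with opposite signs were the liver transcripts Serpina1c, Alb, Mup3, Ahsg and Fgb, with interactions of 5.42 to 3.29. Alb, serum albumin, had 8.21 to 11.32 in conventional mice fed lard, against 6.40 to 10.84 in germ-free mice fed lard, and 8.39 to 11.28 in conventional mice fed fish oil, against 11.70 to 12.88 in germ-free mice fed fish oil. Its average effect of -0.89 (adjusted p = 0.17) stood for 1.27 with lard and -3.06 with fish oil. Of 21 liver transcripts 14 were called lower in the average, and of these 3 had the same sign under both diets. Of the 20 intestinal epithelium transcripts 0 were called by limma in the average (1 at an unadjusted p under 0.05), with a median of -0.349, which is -0.645 with lard and -0.003 with fish oil.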

How the data were processed

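Total RNA of epididymal fat was labelled and hybridised to 1-colour Affymetrix arrays, and the authors deposited log2 values after RMA, per the submitters' processing notes; no RMA version or settings are given. RMA corrects background, equalises the distribution of all arrays and summarises probes, so a shift shared by most genes would be removed. Of 35556 probe sets, 21789 carried 1 gene symbol, 1621 several and 12146 none, and those with 1 symbol were tested. The probe set with the highest mean stood for a gene, which left 19938 genes. No further normalization or filter was applied.

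Group means were fitted with limma 3.58.1 in R 4.3.3, with 6 mice in each group, and contrasts gave the average over both diets, the effect under each diet and their difference (lard minus fish oil). P-values were adjusted by Benjamini-Hochberg over all genes, with a threshold of 0.05, and the procedure was tested on simulated data. The diets' effects share no mice with each other, and the average holds both. The genes named were the 15 largest rises and falls called under both diets, the leading members of each list and a fixed panel. The rankings of rises and falls left out clone, predicted, immunoglobulin, T cell receptor segment, olfactory, vomeronasal, microRNA and small nucleolar names. The comparison and the lists were chosen with earlier results of these data known. Some further genes are said to be so where they are named. Others lie outside this rule too and were picked with the results known, such as Per3, Tef, Nr1d2, Npc2, Psmd2, and Gla, Atp6v1a and Ctsd among the promoter stretches. Promoter windows came from RefSeq, build GRCm38.p6. Alternatives are in the closing section.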

Additional observations from a re-analysis of the deposited data

Results flagged for a closer look

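In 31 of 604 groups of 6 mice, 1 mouse stood far from the other 5, with a gap above the Dixon limit, and chance alone gives about 1 in 20 such groups. Among conventional mice fed lard these were Mamdc2 in mouse 5 at 9.39 (next 8.27), Depp1 in mouse 1 at 8.49 (next 7.85), Tnfaip3 in mouse 6 at 8.40 (next 8.11) and Ccn2 in mouse 5 at 10.52 (next 9.66), in log2. Among germ-free mice fed lard these were Mrpl13 in mouse 1 at 9.09 (next 8.82), Idi1 in mouse 6 at 8.60 (next 9.22), Ccl5 in mouse 6 at 10.34 (next 9.30) and Ffar2 in mouse 2 at 8.76 (next 9.11), in log2. The same group held Uqcrc2 in mouse 1 at 12.12 (next 12.03), oxidative phosphorylation list mean in mouse 2 at 10.76 (next 10.87), NK list mean in mouse 6 at 6.74 (next 6.31) and intestinal epithelium list mean in mouse 4 at 8.98 (next 6.43), in log2. Among conventional mice fed fish oil these were Cd3g in mouse 1 at 7.75 (next 7.41), Fggy in mouse 2 at 6.97 (next 7.78), Cidea in mouse 6 at 9.73 (next 8.15) and Ccl5 in mouse 1 at 10.56 (next 9.89), in log2. The same group held Clec9a in mouse 1 at 7.54 (next 7.10), Hsph1 in mouse 6 at 8.63 (next 9.09), Ffar2 in mouse 5 at 9.59 (next 9.97) and Ctsd in mouse 5 at 12.91 (next 13.12), in log2. The same group held Saa3 in mouse 6 at 8.19 (next 9.21), Alb in mouse 6 at 11.28 (next 9.47), Ahsg in mouse 6 at 7.91 (next 6.44) and Fgb in mouse 6 at 8.34 (next 6.83), in log2. The same group held liver list mean in mouse 6 at 8.45 (next 7.39), in log2. Among germ-free mice fed fish oil these were Rps19 in mouse 2 at 11.41 (next 11.10), Ccl5 in mouse 1 at 8.33 (next 9.26), Sdha in mouse 6 at 12.13 (next 11.97) and oxidative phosphorylation list mean in mouse 2 at 11.57 (next 11.43), in log2. The same group held mitochondrial ribosome list mean in mouse 2 at 9.40 (next 9.24) and NK list mean in mouse 1 at 5.91 (next 6.32), in log2.

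The effect of the microbiota differed between the diets for 1435 genes by the interaction test in limma, and 22 genes named here were among them. The differences, lard minus fish oil in log2, were as follows. Differences were 5.42 for Serpina1c, 4.33 for Alb, 4.11 for Mup3, 3.45 for Ahsg, 3.29 for Fgb and 1.64 for Saa3. Next came 1.46 for Lcn2, 1.13 for Hspa1a, 0.71 for Clec9a, 0.58 for Nfkbia, 0.47 for Ticam1 and -0.32 for Atp5a1. Then came -0.35 for Entpd4, -0.37 for Uqcrc2, -0.40 for Atp5b, -0.41 for Nnt, -0.56 for Ndufs1 and -0.65 for Klf9. Lowest were -0.86 for Acss2, -1.06 for Cidea, -1.22 for Elovl6 and -1.51 for Rasd1.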

How the results depend on the processing

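No named gene that was called in the average had the other sign under any alternative run. Of the named genes that were not called, 12 did under at least 1. These were Tnf, Il6, Il1b, Lep, Ucp1 and Sdha with 1 mouse left out, and Ccl2, Lcn2, Serpina1c, Alb, Mup3 and Atp5a1 with the liver covariate. Serpina1c, Alb and Mup3 are themselves liver transcripts. A lost or changed effect with a mean of liver transcripts as the covariate was largely built in for them and tests nothing. The lard split of 1749 higher and 1491 lower was 1428 and 1666 with centred arrays, and 83 and 94 without germ-free mice 2, 4 and 5 of that diet. With all probe sets kept, 6241 were called in the average, 5053 with lard and 5861 with the same direction under both diets. Leaving out germ-free mice 2, 4 and 5 of the lard diet gave 2365 in the average, 177 with lard, 225 for the interaction and 2296 with the same direction. Leaving out conventional mice 5 and 6 of that diet gave 5079 with lard and 2710 for the interaction, and array weights gave 5033 and 2526. The liver mean as a covariate left 2292 with the same direction. Asking for at least 1.5-fold left 178 in the average, 294 with lard, 361 with fish oil, 385 for the interaction and 158 with the same direction. Leaving out 1 mouse at a time gave 3349 to 4580 in the average, 2253 to 4302 with lard, 1761 to 2752 with fish oil, 861 to 2070 for the interaction and 3149 to 4139 with the same direction. The cause of these shifts was not tested beyond the fewer samples or larger fold asked for. With centred arrays the split was 2757 higher and 701 lower with fish oil, and 312 and 1688 for the interaction. The mouse numbers do not pair the samples, since deviations of same-numbered mice correlated at -0.497 to 0.351. With them as a replicate block 3651 genes were called in the average, 2968 with lard, 2294 with fish oil, 1131 for the interaction and 3396 with the same direction. Of 140 named genes, 25 lost their call with the liver covariate and 14 without the 3 lard-fed germ-free mice. Low signals, such as Il6, bound what these arrays can show.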

Other observations

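Beyond the groups described, 2 genes chosen after their values were seen stood out in the average. Rasd1, a small GTPase induced by dexamethasone, had 9.98 to 10.82 in conventional mice fed lard, against 9.29 to 10.22 in germ-free mice fed lard, and 9.68 to 10.62 in conventional mice fed fish oil, against 7.18 to 8.75 in germ-free mice fed fish oil. It rose by 1.37 ± 0.16 (limma adjusted p = 1.2e-05). Sult1e1, the oestrogen sulfotransferase, rose by 1.12 ± 0.25 (adjusted p = 0.0024), with 0.90 under lard and 1.33 under fish oil. The MHC class II list gave 1 rise and 1 fall among 12 genes in the average, while 8 of the 12 had an interaction, with medians of 0.20 under lard and -0.24 under fish oil.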
